A study of Mus musculus with 39 samples.

Results

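The transcription factor p53, encoded by Trp53, and 9 of its best known stress target genes were followed through the mouse oocyte-to-embryo transition, in fertilized and cloned 2-cell embryos. The members were the 10 genes Trp53, Mdm2, Cdkn1a, Ccng1, Bbc3, Pmaip1, Bax, Gadd45a, Sesn2 and Trp53inp1, chosen by name: every array probe whose transcript accession belongs to 1 of these symbols in the RefSeq mouse annotation was taken. They were covered by 14 of 41174 probes and made up 10 of 16535 named genes on the array. Trp53, Mdm2, Ccng1 and Trp53inp1 each had 2 probes, and the other 6 genes had 1.

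RNA was measured on 39 one-colour Agilent Whole Mouse Genome arrays, all from (B6xDBA/2)F1 mice, with cells taken from superovulated females of 8–10 weeks. OC denotes pools of 10 metaphase II unfertilized oocytes (n = 7), IVF pools of 10 in vitro fertilized 2-cell embryos cultured for 24 h (n = 6), and Cumulus 500 cells of the type that surrounds the oocyte and served as nuclear donor (n = 4). TSA(–) were 2-cell embryos cloned by transfer of a cumulus nucleus and cultured for 24 h after activation (n = 8), and TSA(+) were the same clones kept in 5 nM trichostatin A (TSA), a histone deacetylase inhibitor, for the first 8 h (n = 6). Spi-C NT were cumulus clones that received mRNA of the transcription factor Spi-C at the pronuclear stage, at 1.0 mg/ml (n = 4) or 0.1 mg/ml (n = 4), without TSA. All clones therefore carry a somatic nucleus in oocyte cytoplasm, and each array is 1 pool, so a gene's level is an average over its embryos, in which fewer expressing cells and less RNA per cell cannot be told apart. The labels do not say whether pools of a group came from separate collections, so p-values measure the spread between these pools, which may be technical.

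The p53 protein is kept scarce by the ubiquitin ligase Mdm2, itself a product of a p53 target gene, and it accumulates when DNA damage or other stress breaks that loop. Stabilized p53 activates genes for cell cycle arrest (Cdkn1a, Ccng1), DNA damage response (Gadd45a), mitochondrial death (Bbc3, Pmaip1, Bax) and metabolic or antioxidant defence (Sesn2, Trp53inp1). Control of p53 lies largely at the level of protein, which arrays do not measure.

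The 250 bases before each annotated transcription start were read for 8 of the members, 11 start sites in all. Pmaip1 and Trp53inp1 were not read. The search was made because p53 acts by binding paired decamers near or within its target genes. The p53 half-site, the decamer bound by a pair of p53 subunits, was searched by its standard consensus with no mismatch, overlapping matches included, and being its own reverse complement it reads alike on both strands. It was found in 6 of 11 windows, against 7.13% of the 32851 windows of the same length before mouse starts in the same RefSeq table. The GC box GGGCGG, searched on both strands, was found in 8 of 11 windows against 32.7% of all. The CCAAT box was found in 6 of 11 against 33.8%, and the TATA box TATAAA in 1 of 11 against 12.4%. The 1 TATAAA match, that of Trp53, lay 242 bases before the start. The 11 windows are not independent, since those of the 3 Bbc3 starts partly overlap and all held a GC box. A match is a run of letters and does not show that p53 binds there. The 6 windows that held a half-site are shown 5′ to 3′ along the gene, on build GRCm38.p6, with each half-site in capitals.
Cdkn1a, upstream start, chr17:29090729-29090978, plus strand: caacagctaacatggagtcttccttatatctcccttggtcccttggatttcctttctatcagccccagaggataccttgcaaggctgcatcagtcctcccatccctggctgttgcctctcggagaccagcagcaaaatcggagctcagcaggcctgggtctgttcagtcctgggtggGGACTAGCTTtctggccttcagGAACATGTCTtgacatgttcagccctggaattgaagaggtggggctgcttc
Mdm2, chr10:117710759-117711008, minus strand: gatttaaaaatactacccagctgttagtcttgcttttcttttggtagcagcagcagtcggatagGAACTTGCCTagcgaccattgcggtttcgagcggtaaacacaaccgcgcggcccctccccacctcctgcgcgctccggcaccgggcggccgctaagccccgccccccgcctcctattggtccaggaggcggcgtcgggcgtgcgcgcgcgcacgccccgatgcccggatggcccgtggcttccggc
Ccng1, chr11:40755287-40755536, minus strand: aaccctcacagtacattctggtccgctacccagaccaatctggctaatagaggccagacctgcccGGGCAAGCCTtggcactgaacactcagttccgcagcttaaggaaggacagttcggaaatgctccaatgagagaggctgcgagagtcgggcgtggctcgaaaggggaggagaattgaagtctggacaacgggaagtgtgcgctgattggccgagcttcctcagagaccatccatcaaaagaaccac
Gadd45a, chr6:67037408-67037657, minus strand: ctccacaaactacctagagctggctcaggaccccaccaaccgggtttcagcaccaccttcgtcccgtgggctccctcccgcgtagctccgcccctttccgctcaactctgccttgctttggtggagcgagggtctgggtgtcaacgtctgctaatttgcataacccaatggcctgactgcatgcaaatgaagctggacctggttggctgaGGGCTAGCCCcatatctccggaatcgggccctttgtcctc
Bax, chr7:45466899-45467148, minus strand: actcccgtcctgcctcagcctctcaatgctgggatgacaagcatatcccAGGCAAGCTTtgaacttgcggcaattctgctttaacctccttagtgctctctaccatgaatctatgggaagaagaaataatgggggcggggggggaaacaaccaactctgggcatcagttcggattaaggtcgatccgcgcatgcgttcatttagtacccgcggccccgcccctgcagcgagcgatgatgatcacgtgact
Trp53, chr11:69580109-69580358, plus strand: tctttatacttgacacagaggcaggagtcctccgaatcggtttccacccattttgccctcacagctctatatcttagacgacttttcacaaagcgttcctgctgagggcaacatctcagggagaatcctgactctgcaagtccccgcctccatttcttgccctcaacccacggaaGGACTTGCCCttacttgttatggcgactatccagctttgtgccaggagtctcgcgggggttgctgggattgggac
The Cdkn1a window held 2 half-sites, GGACTAGCTT and GAACATGTCT, the second ending 41 bases before the upstream start. The half-site nearest to a start was GGGCTAGCCC of Gadd45a, 30 bases before it. The second Cdkn1a start, the 3 starts of Bbc3 and the start of Sesn2 had no exact match.

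A level is the log2 of the processed spot intensity minus the array's 75th percentile, so that 0 is the 75th percentile itself. Each gene was counted by its representative probe, the one well above background on the most arrays and, on a tie, the brighter. Differences were tested with limma across 39517 probes and called at a Benjamini-Hochberg adjusted p under 0.01. All member probes were well above background on every array except those of Cdkn1a, at 4 of 7 OC pools, and the second probe of Mdm2, at 3 of 4 Cumulus arrays. The 75th percentile of intensity ranged from 271 to 512 in OC pools and from 792 to 2666 elsewhere, so the oocytes were the dimmest arrays. The 7 oocyte markers on the array (Zp2, Zp3, Gdf9, Bmp15, Mos, Nlrp5 and Oosp1) were well above background on all OC arrays, and all 9 cumulus markers on all Cumulus arrays. All 7 oocyte markers were so on all IVF and Spi-C NT arrays too, and 4 of the 9 cumulus markers on all OC arrays. The 5 markers of the 2-cell embryo were well above background on every embryo array. Of these, 4 were so on all OC arrays and 1 on all Cumulus arrays. Both leukocyte markers, Ptprc and Lyz2, were also well above background on all 4 Cumulus arrays, with a summed log2 level of 4.48 to 6.74 against at most 0.26 in every other group. Spi-C NT and Cumulus arrays lay on slides of their own and were read with another scanner and software version than the rest, so for comparisons that set them against other groups the effect of the slide and of the group cannot be told apart.

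**Figure D1:**
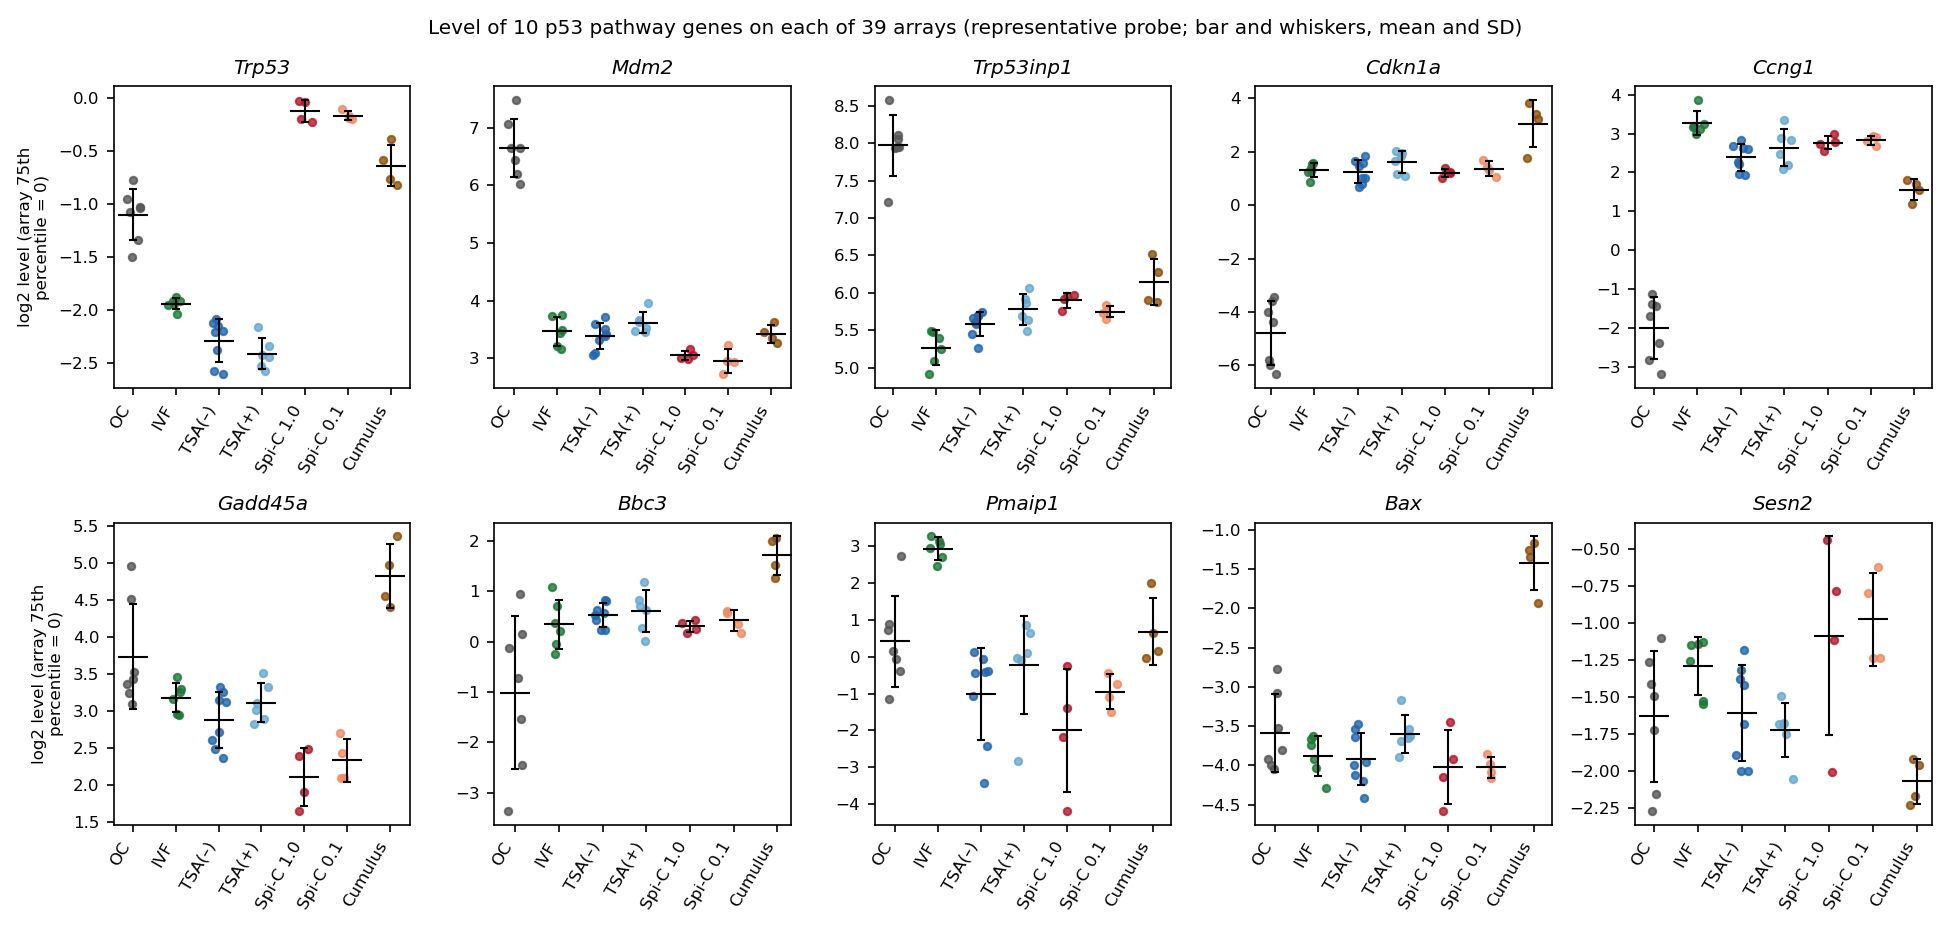
Log2 level of the representative probe of each member (vertical axis, 0 = the array's 75th percentile) on each array, by group (horizontal axis). Points are arrays, and bars with whiskers are mean and SD; Cdkn1a and Ccng1 were low in OC and high elsewhere, Mdm2 and Trp53inp1 were highest in OC, and Pmaip1 was highest in IVF.

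The first comparison follows the genes from the unfertilized oocyte to the fertilized 2-cell embryo. Cdkn1a, Ccng1, Bbc3 and Pmaip1 rose, while Trp53, Mdm2 and Trp53inp1 fell. These are 4 of 10 members higher, where 23.3% of all probes were called higher, and 3 lower, where 42.7% were called lower. Gadd45a, Bax and Sesn2 were not called. The median of all probes was -0.88 on the log2 scale in this comparison and would be -0.28 with quantile normalization and -1.55 with centring on the array median. The split was 5 higher and 4 lower with quantile normalization and 3 and 5 with median centring. All 7 calls kept their direction under both of these scalings, with Bbc3 no longer called under median centring at 0.68 (adjusted p = 0.147).

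Cdkn1a, which encodes the cyclin-dependent kinase inhibitor p21, had a level of -6.34 at the lowest, -4.36 at the median and -3.46 at the highest OC pool. In IVF it was 0.86, 1.34 and 1.59. The groups were far apart, and Cdkn1a rose by 6.11 ± 0.40 (log2 difference ± SE), that is 69.1-fold (limma adjusted p = 2.55e-14). Since 3 of 7 OC pools did not have it well above background, the size of this fold rests on dim spots.

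Ccng1 encodes cyclin G1, an atypical cyclin that recruits a phosphatase to Mdm2. Its representative probe ran from -3.19 through a median of -1.70 to -1.11 in OC, and from 2.98 through 3.17 to 3.87 in IVF. This was a rise of 5.26 ± 0.28, or 38.4-fold (adjusted p = 2.22e-16), with no overlap. The second Ccng1 probe did not follow: it was at 0.08, 1.35 and 1.94 in OC and at 0.29, 0.49 and 0.70 in IVF, a difference of -0.62 ± 0.22 (adjusted p = 0.0132) that was not called.

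Both BH3-only death genes were called higher in IVF. Pmaip1, which encodes Noxa, was at -1.15, 0.14 and 2.72 in OC and at 2.45, 3.01 and 3.27 in IVF. It rose by 2.52 ± 0.59, or 5.73-fold (adjusted p = 4.16e-04), and 1 OC pool lay within the IVF range. Bbc3, which encodes Puma, was at -3.36, -0.71 and 0.94 in OC and at -0.24, 0.29 and 1.08 in IVF. The OC pools of Bbc3 were widely spread and overlapped IVF, and its rise of 1.36 ± 0.43 (adjusted p = 0.00633) was lost without any 1 of 6 arrays, OC pools 4, 5 and 6 and IVF pools 1, 2 and 4. Its adjusted p was then between 0.0109 and 0.0204.

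Mdm2, the negative regulator, was at 6.03, 6.64 and 7.48 in OC and at 3.16, 3.47 and 3.75 in IVF. It fell by 3.18 on the log2 scale (SE 0.18, 9.04-fold, adjusted p = 1.62e-15), with no overlap. Under quantile normalization the difference was -1.19. The second Mdm2 probe also fell, by 0.96 (SE 0.23, adjusted p = 5.31e-04).

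Trp53inp1, a stress protein linked to autophagy, was at 7.21, 7.95 and 8.58 in OC against 4.91, 5.33 and 5.49 in IVF, a difference of -2.70 ± 0.17 (6.48-fold lower, adjusted p = 8.63e-15). Under quantile normalization the difference was -0.40. Its second probe was called in the opposite direction, at 1.21 ± 0.25 (adjusted p = 1.00e-04), so the direction for Trp53inp1 depends on the probe.

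Trp53 itself fell on both probes. The representative probe was at -1.50, -1.04 and -0.78 in OC and at -2.04, -1.93 and -1.88 in IVF. The difference was -0.84 ± 0.13 (1.79-fold lower, adjusted p = 1.10e-06) on this probe and -2.38 ± 0.18 (5.21-fold lower, adjusted p = 1.09e-12) on the other. The IVF pools were tightly grouped, with an SD of 0.05 on the representative probe.

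The 3 members that were not called differed by less. Gadd45a, which acts in repair and growth arrest, differed by -0.55 ± 0.25 (adjusted p = 0.0471), Bax, the pore-forming death effector, differed by -0.29 ± 0.21, and Sesn2, a stress-induced inhibitor of mTOR signalling, by 0.34 ± 0.18. The direction of Gadd45a turned with the scaling, being called at 0.68 with quantile normalization and at -1.23 with median centring. Bax was called lower under both, at -1.01 and -0.97, and Sesn2 turned to -0.12 and -0.34. On the 2 slides that held both OC and IVF pools, the 7 called members differed in the same direction in 14 of 14 within-slide values. The same arrays had entered the calls, so this is a description and not a separate test.

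The comparison of TSA(–) with IVF asks how a somatic nucleus transferred without TSA differs from a fertilized one. Pmaip1 was the only member called, and it fell by 3.95 on the log2 scale (SE 0.58, 15.4-fold, adjusted p = 5.00e-06). The TSA(–) pools lay at -3.42, -0.43 and 0.13 (lowest, median, highest), all below the lowest IVF pool at 2.45. Thus 1 of 10 members was lower, where 10.3% of all probes were called lower, and none was higher, where 8.49% were. Of the 10 members, 3 had an unadjusted p under 0.05, while 10977 of 39517 probes passed even a limma adjusted p under 0.05. Under quantile normalization Trp53inp1 was also called, higher at 0.49. On the 3 slides that held both groups, the Pmaip1 difference was -3.69, -4.21 and -4.87.

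No other member was called in TSA(–). Cdkn1a was at 0.67, 1.25 and 1.83, a range that held that of the IVF pools (0.86 to 1.59), with a difference of -0.07 ± 0.38. Bbc3 differed by 0.18 ± 0.42, Bax by -0.04 ± 0.20 and Mdm2 by -0.08 ± 0.18. Each SE rests on 1 spread per probe shared by all groups of the fit, OC and Cumulus included. For Bbc3 the SD was 1.52 in OC against 0.49 in IVF and 0.23 in TSA(–), so its SE here is widened by the oocytes. The SE of Cdkn1a is widened too, with an SD of 1.21 in OC and 0.89 in Cumulus against 0.265 in IVF and 0.43 in TSA(–). Ccng1 differed by -0.87 ± 0.27 (adjusted p = 0.0151) and Trp53 by -0.35 ± 0.12 (adjusted p = 0.0348), neither of which was called, although the TSA(–) and IVF pools did not overlap for either. The second Ccng1 probe differed by 0.67 ± 0.22, which is the opposite sign.

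In TSA(+) clones Pmaip1 was again lower than in IVF, by 3.16 (a log2 difference of -3.16 ± 0.62, 8.95-fold lower, adjusted p = 2.32e-04). The TSA(+) pools lay at -2.83, 0.03 and 0.85. Trp53 was called lower as well, at -0.47 ± 0.13 (1.39-fold, adjusted p = 0.00795), with TSA(+) pools at -2.57, -2.43 and -2.16, all below the IVF pools. The second Trp53 probe was called too, at -0.84 ± 0.19 (adjusted p = 9.94e-04). The call on the representative Trp53 probe was lost without any 1 of 11 of the 12 arrays, with adjusted p from 0.0105 to 0.0220, and without the remaining array, TSA(+) pool 1, it held. It was also lost under quantile normalization and under median centring, while Trp53inp1 became called higher under each (0.72 in both), so that the split was 1 higher and 1 lower. So 2 of 10 members were lower, against 11.1% of all probes, and 0 higher, against 7.83%. At an unadjusted p under 0.05 there were 5 members, while 11544 of 39517 probes passed even a limma adjusted p under 0.05. The 6 within-slide values of Pmaip1 and Trp53, over 3 slides, all lay below 0, on arrays that had also entered the calls.

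TSA(+) and TSA(–) clones were then compared directly. No member was called by limma or by the methods' analysis of variance with Tukey's test, and 0 of 10 had an unadjusted p under 0.05; 0.043% of all probes were called higher in TSA(+) and 0.0936% lower. The largest difference was that of Pmaip1, at 0.78 ± 0.58 (adjusted p = 0.524), with widely spread pools in both groups (SD 1.33 and 1.26). Cdkn1a differed by 0.37 ± 0.38 and Bax by 0.32 ± 0.20. On the 1 slide that held both groups, with 1 pool of each, Pmaip1 differed by 3.27.

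**Figure D2:**
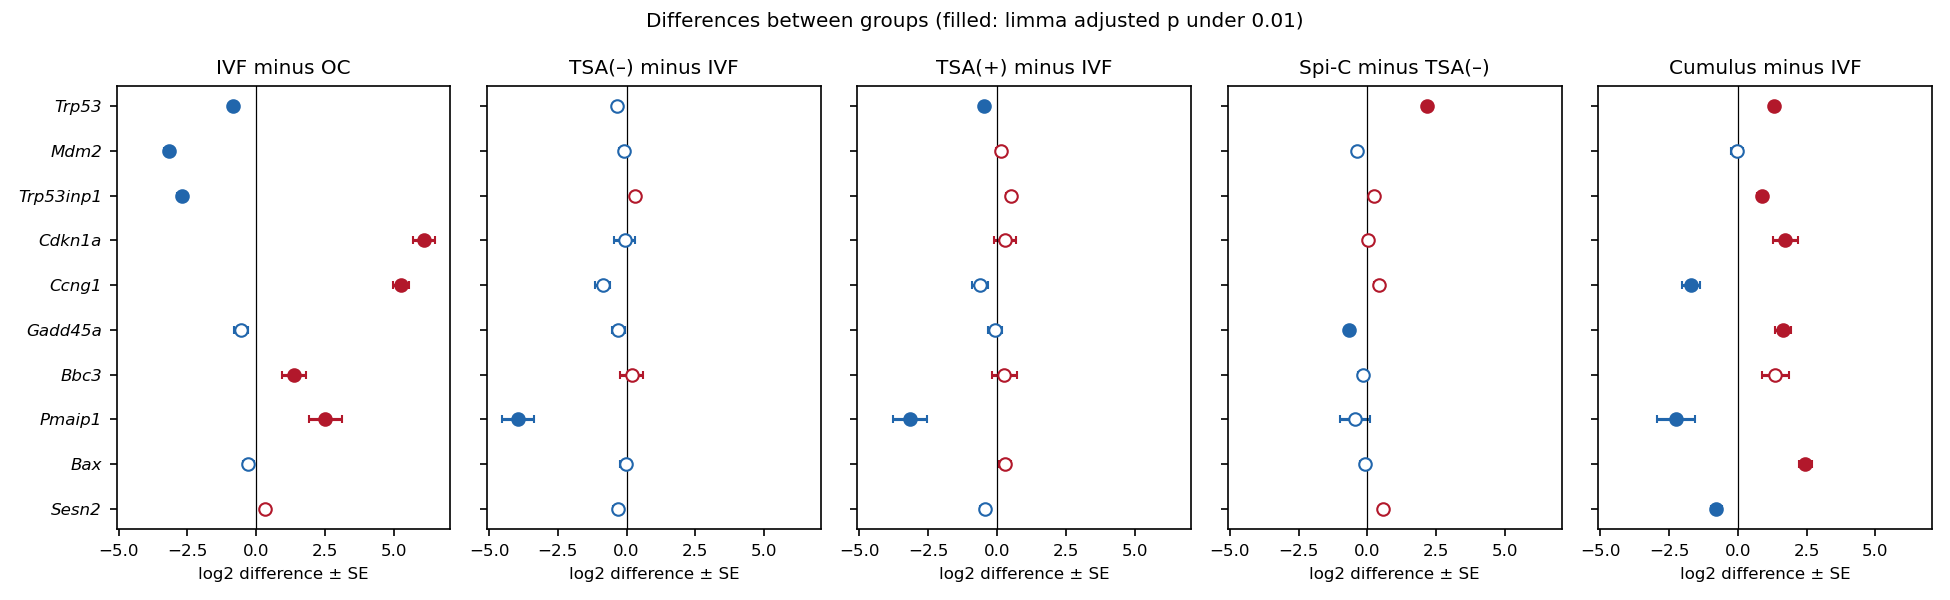
Log2 difference with its standard error (horizontal axis) for each member (vertical axis) in 5 comparisons, by representative probe. Filled points passed a limma adjusted p under 0.01; Pmaip1 lies at -3.95 and -3.16 in both comparisons of clones with IVF, and Trp53 at 2.15 in Spi-C NT against TSA(–).

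Spi-C mRNA clones were compared with TSA(–) clones, taking the mean of both doses. Trp53 was higher and Gadd45a lower, 1 of 10 members each way, where 11.5% and 9.2% of all probes were called. Trp53inp1 was also called higher with quantile normalization (0.47), and Mdm2 lower with median centring (-0.55). The representative Trp53 probe was at -0.20, -0.02, -0.23 and -0.03 in the pools given 1.0 mg/ml and at -0.10, -0.18, -0.20 and -0.17 in those given 0.1 mg/ml. All 8 pools lay far above the TSA(–) pools (-2.61, -2.20 and -2.09), and the difference was 2.15 ± 0.09, or 4.43-fold (adjusted p = 4.77e-15). The second Trp53 probe, however, lay at -3.95, -3.64, -3.01 and -3.79 at the higher dose and at -3.81, -4.05, -3.84 and -3.38 at the lower, against -4.17, -3.84 and -3.14 in TSA(–). Its difference was 0.10 ± 0.14 (adjusted p = 0.642), so the rise of Trp53 was carried by 1 of its 2 probes. The representative probe was also higher in Cumulus than in IVF, and Cumulus was the other group read with the second scanner, so group and scanner cannot be told apart here.

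Gadd45a was at 1.65, 1.91, 2.39 and 2.48 at the higher dose and at 2.10, 2.10, 2.70 and 2.44 at the lower, against 2.36, 2.92 and 3.33 in TSA(–). The groups overlapped, and the difference was -0.66 ± 0.16 (1.58-fold lower, adjusted p = 0.00259). It was not called when only the compared groups entered the fit (adjusted p = 0.0138) or with a replicate block (adjusted p = 0.0251). Pmaip1 was at -2.19, -0.25, -4.19 and -1.39 at the higher dose and at -0.44, -1.51, -0.73 and -1.10 at the lower, so that all 8 pools lay below every IVF pool. Against TSA(–) it differed by -0.46 ± 0.55. Sesn2 (0.58 ± 0.17, adjusted p = 0.0129) and Mdm2 (-0.38 ± 0.11, adjusted p = 0.0128) were not called, although Sesn2 was called without TSA(–) pool 8 or the 1.0 mg/ml pool 1, and Mdm2 without TSA(–) pool 1, TSA(–) pool 4 or the 0.1 mg/ml pool 2. The count was then 3. Trp53inp1 was not called by its representative probe but was by the second (0.65 ± 0.12, adjusted p = 1.36e-04).

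The 2 Spi-C doses shared both of their slides, with 2 pools of each dose on each slide. No member was called by limma or by Tukey's test, 0 had an unadjusted p under 0.05, and 0.00506% of all probes were called higher at 1.0 mg/ml and 0% lower. Pmaip1 differed most, at -1.06 ± 0.77, and by -0.24 and -1.87 within the 2 slides. Trp53 differed by 0.04 ± 0.12, the narrowest interval among the members.

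The cumulus cell gave the clones their nucleus, while their cytoplasm came from the oocyte. Cumulus levels are therefore not the RNA with which the clones started, and clones were not tested against OC. Trp53, Cdkn1a, Bax, Gadd45a and Trp53inp1 were higher in Cumulus than in IVF, and Ccng1, Pmaip1 and Sesn2 lower. This was 5 of 10 higher against 23.9% of all probes, and 3 lower against 31.3%. With median centring the split was 7 higher and 0 lower, and with quantile normalization 4 and 2. The second Trp53 probe was not called (0.42 ± 0.21, adjusted p = 0.0877). Bax was at -1.17, -1.25, -1.93 and -1.34 in Cumulus, above all pools of oocytes and embryos, and exceeded IVF by 2.46 ± 0.24 (5.5-fold, adjusted p = 2.23e-10). Gadd45a was at 4.55, 4.40, 4.97 and 5.36, which is 1.64 ± 0.29 above IVF (3.12-fold, adjusted p = 1.18e-05). Cdkn1a was at 3.81, 3.21, 1.77 and 3.43 and differed by 1.73 ± 0.46 (3.32-fold, adjusted p = 0.00154). That call was lost without Cumulus array 1 (adjusted p = 0.0114) and under quantile normalization (adjusted p = 0.0129).

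Pmaip1 in Cumulus, at 0.14, -0.05, 1.99 and 0.64, was 4.76-fold lower than in IVF (-2.25 ± 0.69, adjusted p = 0.00544). This call was lost without IVF pool 2 or without Cumulus array 1, 2 or 4, with adjusted p of 0.0105 to 0.0241. With median centring neither Pmaip1 (-1.36, adjusted p = 0.0831) nor Ccng1 (-0.81, adjusted p = 0.0250) was called. Sesn2 was called lower at -0.78 ± 0.21 (adjusted p = 0.00176), but turned to 0.12 with median centring, a scaling that moved the median of all probes in this comparison from -0.14 to 0.75. The median of the 10 members was 1.09. Probes of 1 gene differed widely in this comparison. The second probe lay 25.1-fold lower in Cumulus than in IVF for Mdm2 (-4.65 ± 0.27) and 55.5-fold lower for Trp53inp1 (-5.79 ± 0.29), while the representative probes were at -0.04 ± 0.21 and 0.88 ± 0.19. For Ccng1 the second probe was 16.9-fold higher (4.08 ± 0.26) and the representative one 3.25-fold lower.

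Relative to the donor cells, TSA(–) clones were lower for Trp53, Cdkn1a, Bax, Gadd45a and Trp53inp1, 5 of 10 members where 24.5% of all probes were called lower, and no member was higher by its representative probe, where 30.5% were called higher. With median centring 8 were lower and 0 higher, and with quantile normalization 4 were lower and 1 higher. The median of all probes in this comparison was 0.11, and moved to -0.76 with median centring and to -0.10 with quantile normalization. The shares of all probes above do not hold for these scalings. Bax differed by -2.49 ± 0.23 (5.64-fold lower, adjusted p = 5.29e-11) and Gadd45a by -1.94 ± 0.27 (3.84-fold, adjusted p = 3.38e-07). The second probes often differed from this. For Trp53inp1 the second probe was called the opposite way, at 5.82 ± 0.28 (56.6-fold higher, adjusted p = 2.37e-17). The second Mdm2 probe was 41.6-fold higher (5.38 ± 0.26) and the second Ccng1 probe 10.6-fold lower (-3.41 ± 0.25), where their representative probes were not called. The comparison shares its TSA(–) pools with the test against IVF and its Cumulus arrays with the preceding one, so these are not independent. Pmaip1, at -1.69 ± 0.65 (adjusted p = 0.0255), was not called. The Trp53inp1 call (-0.56 ± 0.18, adjusted p = 0.00909) was lost without any 1 of 9 arrays, namely TSA(–) pools 1, 2, 3, 4, 5, 6 and 8 and Cumulus arrays 1 and 4, with adjusted p from 0.0101 to 0.0601.

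The order of the groups differed from gene to gene. For Pmaip1 it ran IVF, Cumulus, OC, TSA(+), Spi-C 0.1, TSA(–) and Spi-C 1.0, and only the step from IVF to Cumulus was free of overlap. For Cdkn1a the order was Cumulus, TSA(+), Spi-C 0.1, IVF, TSA(–), Spi-C 1.0 and OC, and only the last step was free of overlap. For Trp53 it ran Spi-C 1.0, Spi-C 0.1, Cumulus, OC, IVF, TSA(–) and TSA(+), with no overlap between Spi-C 0.1 and Cumulus, between OC and IVF or between IVF and TSA(–). For Bax only Cumulus stood apart from its neighbour, and for Sesn2 and Gadd45a every neighbouring pair overlapped.

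Both probes were set side by side for the 4 genes that had 2, over 8 comparisons. The sign was shared in 16 of 32 cases and the call in 21 of 32. For Trp53 all 8 signs were shared. For Ccng1 only 1 of 8 was, Spi-C NT against TSA(–). Some pairs differed in sign with neither probe called. The second Mdm2 probe differed by 0.73 in TSA(–) against IVF, by -0.42 in TSA(+) against TSA(–) and by 0.06 in Spi-C NT against TSA(–). The second Ccng1 probe differed by 0.39 in TSA(+) against IVF, by -0.29 in TSA(+) against TSA(–) and by 0.36 between the Spi-C doses. The second Trp53inp1 probe differed by -0.33 in TSA(+) against IVF and by -0.36 in TSA(+) against TSA(–). No genome was used to place the probes, so the part of the transcript each one reads is not given here, and directions for Ccng1 and Trp53inp1 hold for the named probe only. RNA had been amplified in 2 rounds before labelling.

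**Figure D3:**
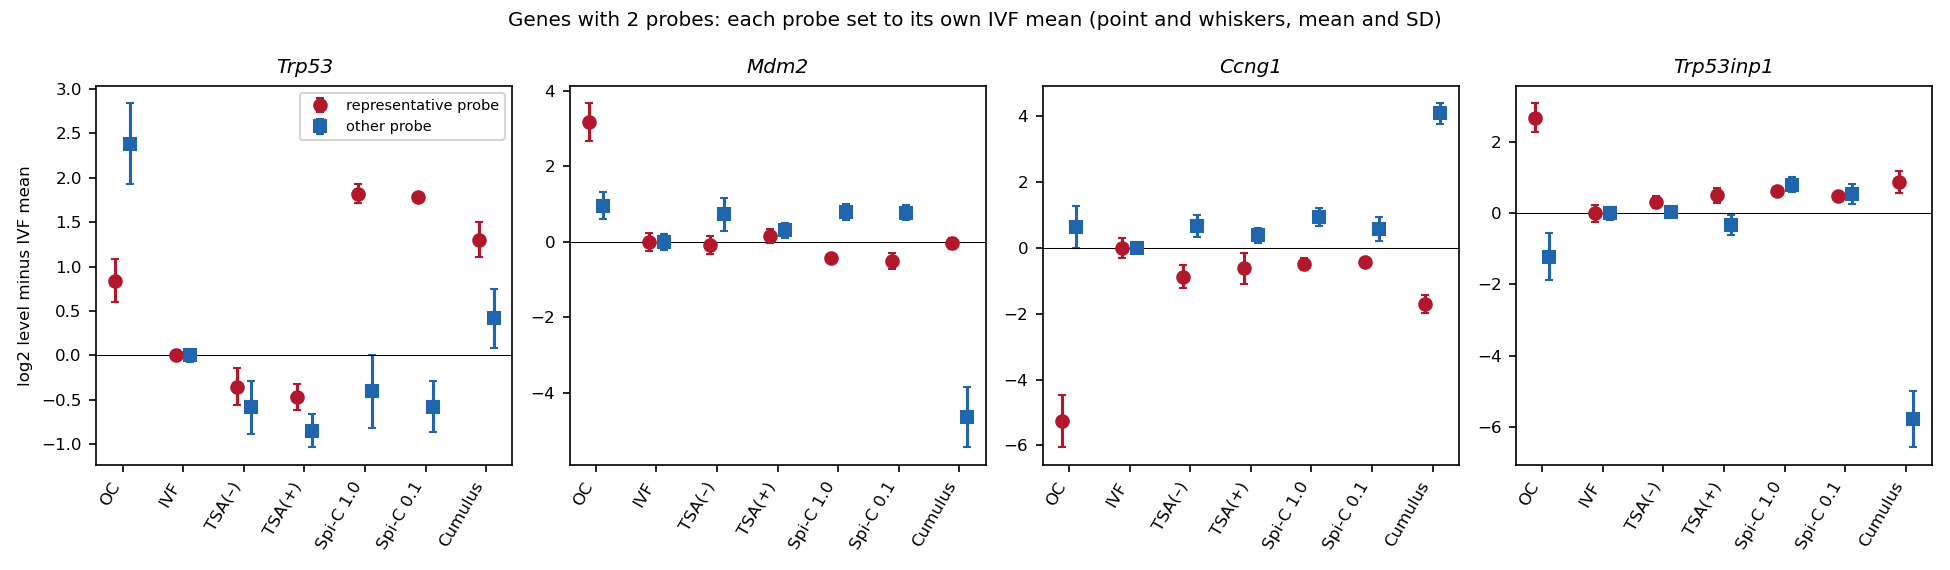
Log2 level minus the probe's own IVF mean (vertical axis) by group (horizontal axis) for the 4 genes with 2 probes, as mean and SD over arrays. The probes part most in OC for Ccng1 (5.26 against -0.62 in IVF minus OC), in Cumulus for Mdm2 and Trp53inp1, and in Spi-C NT for Trp53.

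The wider pathway was described by lists of p53 regulators, targets and related genes taken from textbook knowledge. Among 22 regulators on the array, 8 were higher and 8 lower in IVF than in OC, a split that moved to 12 and 5 with quantile normalization and to 7 and 11 with median centring. Over all probes 23.3% were higher and 42.7% lower, to be read beside this and the other lists of the comparison. Ppm1d, the phosphatase that switches off the damage response, was 27-fold lower in IVF (-4.76 ± 0.22), and the damage adaptor Trp53bp1 was 23.4-fold lower (-4.55 ± 0.18). The checkpoint kinase gene Chek2 was 3.85 ± 0.59 higher, well above background on 6 of 7 OC pools, and the acetyltransferase gene Crebbp was called higher too, but with only 1 of 7 OC pools well above background its fold is not given. Of the family members, Trp63 fell 7.29-fold (-2.87 ± 0.22) and Trp73 rose 3.22-fold (1.69 ± 0.24).

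Genes of the arrest and cell cycle list rose more often than they fell after fertilization, 8 of 15 higher and 3 lower. Their median difference was 1.37 against -0.88 for all probes. The split was 8 and 1 with quantile normalization and 6 and 4 with median centring. Besides p53 targets this list holds related genes, namely Cdkn1b, Cdkn1c, Cdkn2b, Cdkn2c, Cdkn2d, Gadd45b and Gadd45g. Its counts in all comparisons are therefore not those of p53 targets alone. Gadd45g and Gadd45b, relatives of Gadd45a, rose 38.1-fold (5.25 ± 0.21) and 29.2-fold (4.87 ± 0.22), while Gadd45a itself was not called. Cdkn1c, which encodes the inhibitor p57, rose 16.7-fold and the spindle gene Ckap2 fell 10.1-fold.

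Among death targets 3 of 15 were higher and 8 lower (4 and 7 with quantile normalization, 1 and 10 with median centring). Zmat3 fell 11.4-fold (-3.51 ± 0.31), Perp 7.55-fold (-2.92 ± 0.23), and Bid rose 2.88-fold (1.53 ± 0.20). Trp53i11 and Eda2r, 2 of the 8, were not well above background on any OC or IVF array, so no fold is given. Of 18 BCL2 family and caspase genes 1 was higher and 13 lower (4 and 9 with quantile normalization, where Bcl2l1, Bcl2l10 and Cycs changed sign). Bcl2l11, which encodes the BH3-only protein Bim, fell 19.4-fold (-4.28 ± 0.22) and Casp9 16.5-fold (-4.04 ± 0.26). Of 18 repair and metabolism targets 4 were higher and 8 lower (7 and 5 with quantile normalization). Ddit4l was 6.46 ± 0.51 higher and Tigar 3.05 ± 0.16 higher, while Ddit4 was -4.36 ± 0.19 and Ddb2 -3.61 ± 0.20.

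In TSA(–) clones against IVF, the arrest and cell cycle list had 1 of 15 genes higher and 7 lower, with a median of -0.75 against -0.05 for all probes. Cdkn2b fell 26.6-fold (-4.74 ± 0.84), well above background on 6 of 8 TSA(–) pools, Cdkn1c 5.16-fold (-2.37 ± 0.40), Plk3 2.95-fold and Cdkn2c 2.76-fold. These 4 were named for the largest called changes, so that their TSA(–) pools lay apart from IVF adds no support. TSA(+) clones gave 1 higher and 7 lower in this list too, or 2 and 5 with median centring. Dram1, a p53 target linked to autophagy, rose 24.3-fold in TSA(–) (4.60 ± 0.45) and 27.1-fold in TSA(+) (4.76 ± 0.48). It was also higher in Cumulus than in IVF, by 7.36 log2 units. The summed log2 level of the 9 cumulus markers ranged over 2.36–3.15 on IVF arrays and over 6.84–7.04 on Cumulus arrays. TSA(–) clones had 2.22–3.18 and TSA(+) clones 3.08–3.54. In embryos this sum was carried by Amhr2, with a mean level of 2.66 in IVF, 2.59 in TSA(–) and 3.18 in TSA(+) against 2.25 in Cumulus, while the means of the other 8 markers in these embryo groups lay between -7.11 and -1.66. The sum therefore says little about donor transcripts, and the part of donor transcripts in these differences was not tested.

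Death targets gave 3 of 15 higher and 1 lower in TSA(–), and 4 and 2 in TSA(+). Over all probes the shares were 8.49% higher and 10.3% lower in TSA(–), and 7.83% and 11.1% in TSA(+), and the counts of regulators and of BCL2 family and caspase genes given here lie near them. Apaf1, the scaffold of the apoptosome, rose 2.89-fold in TSA(–) (1.53 ± 0.16) and 3.17-fold in TSA(+) (1.66 ± 0.17), and Bid 1.88-fold in TSA(–). Phlda3 was called higher in both, but only 2 of 6 IVF pools had it well above background, so its fold is not given. Of the BCL2 family and caspases 1 of 18 was higher and 2 lower in both kinds of clone, with the initiator caspase gene Casp8 at -2.05 ± 0.24 in TSA(–) and -2.38 ± 0.26 in TSA(+). Of the regulators 1 of 22 was higher and 2 lower in TSA(–). Cdkn2a, the locus of the Mdm2 antagonist Arf, was at least 1.46-fold lower in TSA(–) and at least 1.89-fold lower in TSA(+) than in IVF, being well above background on 3 of 6 IVF pools and on no TSA(–) or TSA(+) array. Repair and metabolism targets gave 4 of 18 higher and 5 lower in TSA(–), with Ddit4l 7.61-fold lower (-2.93 ± 0.49), Fancc 3.46-fold lower and Sesn1, a relative of Sesn2, 2.83-fold higher. Trp73 and Trp63 were lower in TSA(–), by -0.95 ± 0.23 and -0.76 ± 0.21.

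**Figure D4:**
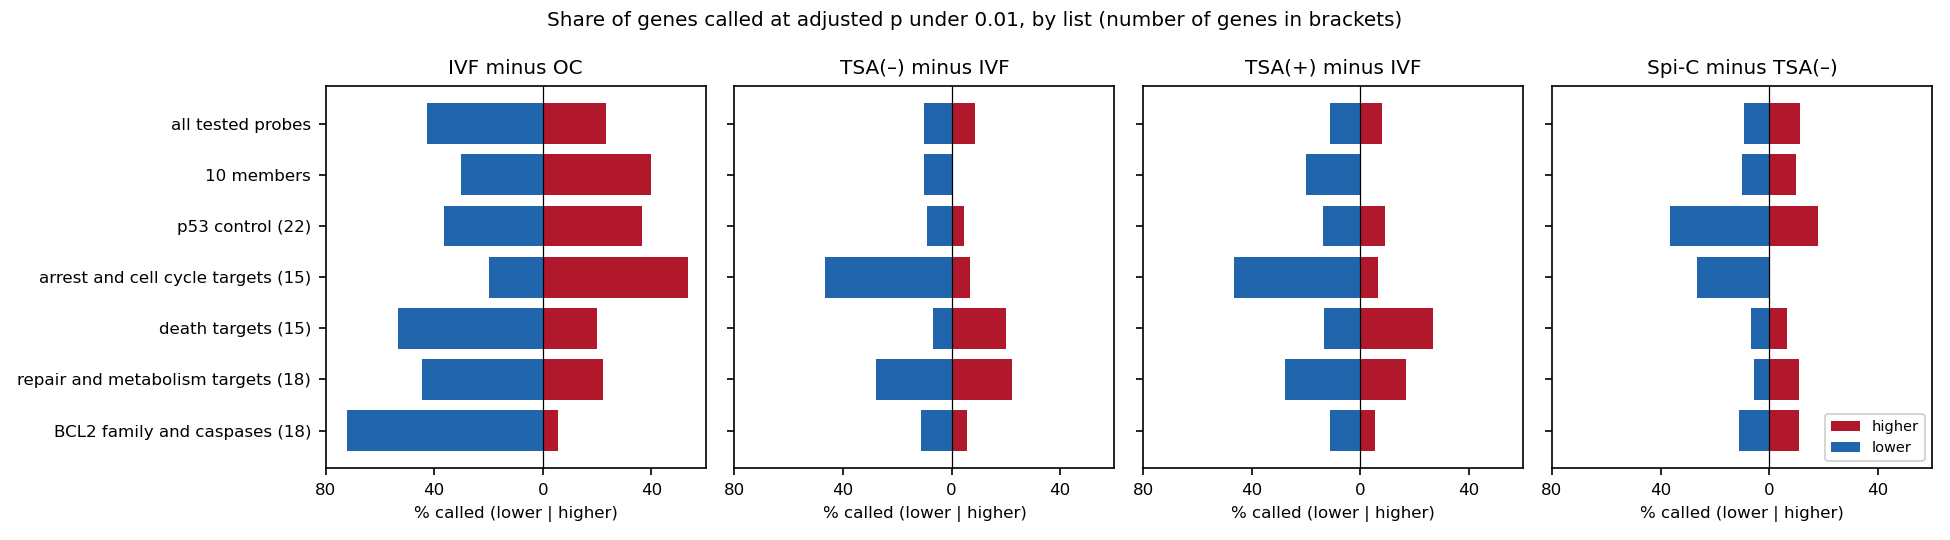
Percent of genes called lower (left of 0) and higher (right of 0) at a limma adjusted p under 0.01 in 4 comparisons (horizontal axis), for all tested probes, the 10 members and 5 lists of p53 pathway and related genes (vertical axis, number of genes in brackets). The arrest and cell cycle list had 8 of 15 genes higher in IVF than in OC and 7 of 15 lower in clones than in IVF.

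In Spi-C NT against TSA(–), 4 of 22 regulators were higher and 8 lower, where 11.5% and 9.2% of all probes were called. Mdm4, the partner of Mdm2, fell 2.02-fold (-1.01 ± 0.10) and Atm 2.2-fold (-1.14 ± 0.17), while Hipk2, a kinase that phosphorylates p53, rose 2.11-fold (1.08 ± 0.22) and Crebbp 1.79-fold. The arrest and cell cycle list gave 0 of 15 higher and 4 lower, or 1 and 5 with quantile normalization. In it Cdkn2d was at -1.19 ± 0.13 and Gtse1 at -1.17 ± 0.12. Death targets gave 1 of 15 each way, Pidd1 higher and Siva1 lower. Rrm2b, which encodes a p53-induced ribonucleotide reductase subunit, fell 3.24-fold (-1.69 ± 0.13) and Bmf, a BH3-only gene, rose 3.12-fold (1.64 ± 0.18). No gene of these lists was called between TSA(+) and TSA(–) or between the Spi-C doses.

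In Cumulus against IVF 23.9% of all probes were called higher and 31.3% lower. Among the regulators 3 of 22 were higher and 12 lower (7 and 9 with median centring), led by Mdm4 at -6.47 and by Crebbp, at least 25.3-fold lower and not well above background on any Cumulus array. Bcl2l10, an oocyte-enriched BCL2 relative, was at -9.52 and Cdkn1c at -6.08. The arrest and cell cycle list gave 4 of 15 higher and 8 lower (6 and 3 with median centring), and death targets 5 and 4 (10 and 2). Repair and metabolism targets gave 6 of 18 higher and 8 lower (9 and 5), and BCL2 family and caspase genes 8 and 6 (9 and 5). The arrest gene Btg2 was 48.8-fold higher and Zmat3 31.6-fold higher.

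The genes whose level most resembled that of a member over the 39 arrays were sought among 22999 named probes. For the representative Trp53 probe these were Iqcd (Pearson r = 0.97), Iapp (0.95) and Cyren (0.95). For Cdkn1a they were Cd63 (0.98), Zfp426 (0.97) and Procr (0.97). These are descriptions over arrays that share groups, slides and scanners.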

How the data were processed

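Total RNA was amplified in 2 rounds, labelled with Cy3 and hybridised to one-colour Agilent arrays. The deposited scanner files hold background-subtracted processed spot intensities, made by the authors with Agilent Feature Extraction 9.5.3.1 (10.5.1.1 for Spi-C NT and Cumulus, per the file headers). The authors also deposited a table of log2 values, normalized in GeneSpring. Over 41174 probes it had a correlation of 0.9998 or more on each array with levels centred on each probe's median, its column medians ran from -0.30 to 1.08, and it served as an alternative.

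Control spots and outlier spots were left out, spots of a probe were averaged, and each array's 75th percentile of log2 intensity was subtracted. Probes were named through RefSeq transcript accessions, which matched 23374 of 41174. A probe was tested where its intensity reached 10 on any IVF or clone array, with limma 3.58.1 (R 4.3.3, lmFit and eBayes), and called where its p after Benjamini-Hochberg adjustment was below 0.01. One fit held all groups except Spi-C NT, and the other held all embryo groups. The script was tested on simulated data. Same-group arrays correlated at 0.94 to 0.97 and none were identical. Precision is limited by the number of arrays.

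All 10 members are named, by the probe well above background on the most arrays, then the brighter, and the other probe where its call or sign differs. Of each pathway list up to 4 called genes with the largest change are named per comparison, and 3 genes most like Trp53 or Cdkn1a. Members and lists were chosen with earlier results of these data known. Alternatives were other scalings, background correction, filters, fits, blocks and thresholds, and leaving out each array.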

Additional observations from a re-analysis of the deposited data

Results flagged for a closer look

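Over 70 groups of 4 to 8 arrays, 1 per representative probe and group, 2 held an array far from the others by Dixon's test, which chance flags in about 1 of 20 groups. For Ccng1, IVF pool 2 was highest at a log2 level of 3.87, against 3.25 for the next IVF pool. For Pmaip1, TSA(+) pool 6 was lowest at -2.83, against -0.09 for the next TSA(+) pool.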

How the results depend on the processing

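Of 335 alternative values for 25 called member differences, 307 kept direction and call, 27 kept direction but lost the call, and 1 reversed: Sesn2, Cumulus against IVF, at 0.12 with median centring. In 17 differences no alternative changed the call. Leaving out arrays entered the 335 values only by the lowest and highest value of each difference. Repeated losses, such as those of Trp53 in TSA(+) against IVF, are therefore undercounted. The number of members called in TSA(–) against IVF, 1 as reported, was 2 with quantile normalization, with normexp background correction and with the compared groups alone, and 3 at an adjusted p under 0.05. In TSA(+) against IVF, 2 became 1 with slide as a fixed block. In TSA(–) against Cumulus, 5 became 8 with median centring and 9 at an adjusted p under 0.05. That centring moved the median of all probes from 0.11 to -0.76. In Spi-C NT against TSA(–), 2 became 1 with the compared groups alone, 4 at an adjusted p under 0.05, and 4 among probes well above background on every array of a group. Of all 39517 probes, 10977 had an adjusted p under 0.05 in TSA(–) against IVF. There were 24618 in TSA(–) against Cumulus and 12324 in Spi-C NT against TSA(–). Leaving out each array gave 6 to 7 members for IVF against OC, 1 to 2 for TSA(+) against IVF, 6 to 8 for Cumulus against IVF, 4 to 5 for TSA(–) against Cumulus and 2 to 3 for Spi-C NT against TSA(–). A replicate block gave 1 member in TSA(+) against IVF (2 without it), 1 in Spi-C NT against TSA(–) (2 without it) and 4 in TSA(–) against Cumulus (5 without it). Same-numbered arrays deviated together with a correlation of only -0.087 to 0.085, so the numbers were not taken as pairs. The causes were not tested. Slide or scan day as a fixed block could not be fitted for Cumulus or for Spi-C NT against TSA(–). Dim spots limit Cdkn1a in OC.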
